A study of Mus musculus with 7 samples.

Results

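The proteins that coat, enlarge and bud lipid droplets were examined in mature white adipocytes with and without FFA2, the free fatty acid receptor 2 that senses short-chain fatty acids. The group holds the 5 perilipins (Plin1, Plin2, Plin3, Plin4 and Plin5), the CIDE proteins Cideb and Cidec, seipin (Bscl2) and the fat storage-inducing transmembrane proteins Fitm1 and Fitm2. These 10 genes were found by symbol among the 57010 gene identifiers of the deposited count table, and 8 of them passed the filter on low counts. RNA came from adipocytes that were freed with collagenase from the perigonadal fat of male mice aged 20 weeks on standard chow. The controls were 3 samples of FFA2 fl/fl mice, which carry the floxed receptor gene without Cre. The 4 samples of Adipoq-F2-KO mice carried the same floxed gene with a Cre transgene driven by the adiponectin promoter, so that the deletion is limited to cells in which that promoter is active. The genotypes were littermates housed together from birth. The labels number the samples of polyadenylated RNA without saying that each came from a single mouse, so p-values measure the spread between these samples.

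A white adipocyte stores triglyceride in a single large droplet, which buds from the endoplasmic reticulum and grows by fusion and lipid transfer. Seipin and the FIT proteins act where droplets form. CIDE proteins gather at contacts between droplets and move lipid from the smaller to the larger. Perilipins bind the droplet surface and decide how far lipases reach the stored fat. PLIN1 and CIDEC are the adipocyte forms, and mutations of either gene, or of the seipin gene, cause lipodystrophy in humans. PLIN1 is also a common marker of adipocyte maturity.

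The libraries held between 30478997 and 39992605 counts. Counts from 1 to 49 were even in 85.5% to 88.8% of cases, a pattern that arises when each fragment adds 2 counts. Ffar2, the deleted gene, had 32.04 to 37.5 normalized CPM (counts scaled to library size after TMM) with the floxed gene intact and 1.15 to 2.58 in Adipoq-F2-KO. The summed level of 17 adipocyte markers other than the 10 genes, led by Car3 and Cfd, was 65853 to 72186 normalized CPM in FFA2 fl/fl and 55502 to 67618 in Adipoq-F2-KO libraries. The ranges overlapped, and none of the 17 markers was at 0. Of these markers 13 had a log2 fold change below 0 (median -0.12), against 49.6% of all tested genes. By edgeR 0 were called, against 1.02% of all tested genes. An unadjusted p under 0.05 from edgeR was found for 5 in the lower direction and 1 in the higher, against 7.37% and 10.5%. No overlap between the genotypes was seen for 4 in the lower direction and 2 in the higher, against 8.72% and 8.86%. RNA of other cells was present: 15 macrophage markers, led by Cd74 and Lyz2, summed to 520.3 to 690.7 normalized CPM in FFA2 fl/fl and 773.2 to 953.9 in Adipoq-F2-KO, and 10 endothelial markers, led by Cdh5 and Pecam1, to 1077 to 1421 and 1494 to 2356. Neither of these sums overlapped between genotypes. Of the 10 endothelial markers edgeR called 0, against 1.02% of all tested genes, and 10 had a log2 fold change above 0. In the higher direction 8 had an unadjusted p under 0.05 from edgeR and 3 had no overlap, against 10.5% and 8.86%. The endothelial sum was 2356 in Adipoq-F2-KO library 4 and 1494 to 1681 in the other knockout libraries. Mitochondrial transcripts took 4.41% to 5.77% of counts in FFA2 fl/fl and 6.61% to 10.3% in Adipoq-F2-KO libraries. Adipoq-F2-KO library 4 had the lowest adipocyte sum, the highest macrophage and endothelial sums and the highest mitochondrial share. It also had the fewest counts (30478997) and the highest share of the gene ENSMUSG00000119584, at 6.76% against 0.619% to 3.75% elsewhere. In bulk RNA, fewer cells of a type and less RNA per cell cannot be told apart.

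Levels of the genes among themselves were compared as normalized CPM per kilobase of summed exon length. In FFA2 fl/fl adipocytes, Cidec had 2795 ± 119, Plin4 929 ± 28.6 and Plin1 655 ± 16.0 (SD, n = 3 for each), and these 3 genes lay between percentiles 99.7 and 99.9 of all tested genes by level per kilobase. Then came Plin2 at 83.4 ± 10.7, Fitm2 at 60.0 ± 2.22 and Bscl2 at 42.8 ± 1.33 (SD, n = 3 for each). Plin3, the perilipin that waits in the cytosol and joins young droplets, had 18.97 ± 0.186, and Plin5, which in oxidative tissues ties droplets to mitochondria, had 3.96 ± 0.426 (SD, n = 3 for each). The order Cidec, Plin4, Plin1, Plin2, Fitm2 held within all 7 libraries. Fitm2 exceeded Bscl2 in 6 of 7 libraries, so these neighbours in the order did not separate. Over the full set of libraries the ranges of Plin4 and Plin1 overlapped too, although Plin4 was the higher in all 7.

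**Figure D1:**
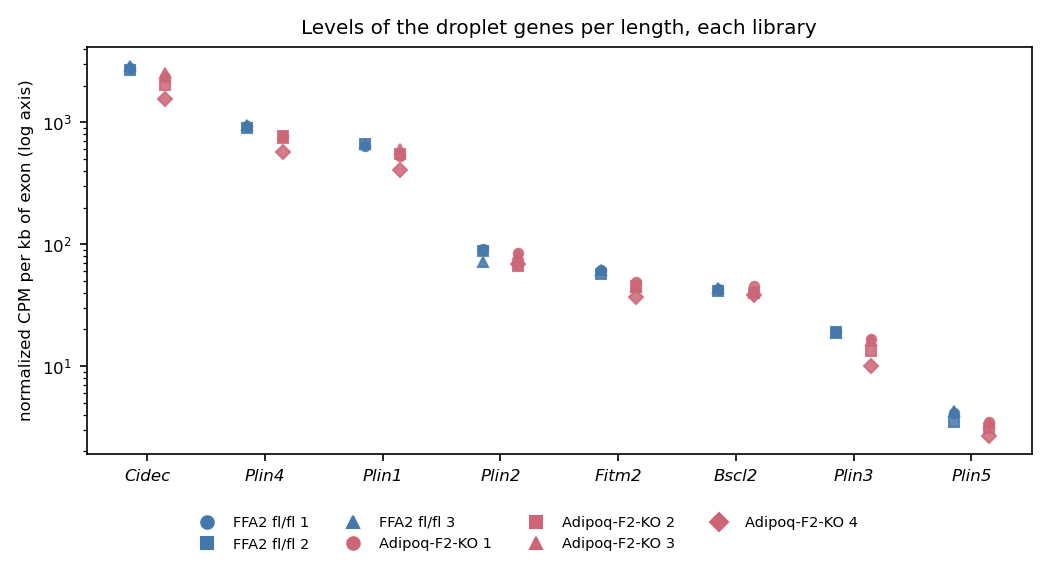
Normalized CPM per kilobase of exon (log axis) of the 8 tested droplet genes, with 1 point per library, FFA2 fl/fl in blue and Adipoq-F2-KO in red. Cidec, Plin4 and Plin1 stand apart from the other genes, and Plin5 is lowest with 2.70 to 4.29.

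Fitm1 and Cideb were at the limit of detection. Fitm1, the FIT protein of skeletal and cardiac muscle, had 14, 0 and 0 counts in FFA2 fl/fl libraries 1 to 3 and 0, 0, 2 and 8 in Adipoq-F2-KO libraries 1 to 4. Cideb, which works in liver and intestine, had 2, 5 and 0 counts and 0, 0, 0 and 2. A count of 0 allows up to 0.15 to 0.197 CPM in these libraries (3 fragments, or 6 counts), for counting error alone. No difference was detectable at this depth. Both genes were left out of the main test, and when every gene with a count was kept, edgeR gave an adjusted p of 0.920 for Fitm1 and 0.779 for Cideb. Cideb shares 1136 exon bases with Nop9 on the other strand. The library kit marks strand, but the strand setting of the counting is not given in the sources used here, so its few counts are uncertain. Fitm1 shares 109 exon bases with Gm15932 on the other strand, which had 0 to 14 counts per library.

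The start regions of Plin1, Cidec, Plin4 and Fitm2 are shown because the first pair of genes defines the adipocyte droplet coat and the second pair had the smallest p-values of the group. Each sequence is the 250 bases before the first RefSeq start site in the GRCm38.p6 build, read 5′ to 3′ on the gene's strand. Capitals mark matches, on either strand, to a PPAR-RXR direct repeat (2 AGGNCA half-sites, 1 base apart), a C/EBP site (TTGCNNAA), a CCAAT box (CCAAT) or a GC box (GGGCGG).
Plin1, chr7:79732777-79733026, minus strand: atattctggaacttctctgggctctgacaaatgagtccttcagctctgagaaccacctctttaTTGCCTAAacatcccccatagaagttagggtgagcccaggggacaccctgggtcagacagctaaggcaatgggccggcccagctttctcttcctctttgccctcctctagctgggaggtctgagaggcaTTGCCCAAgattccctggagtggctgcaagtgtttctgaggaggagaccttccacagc
Cidec, chr6:113435761-113436010, minus strand: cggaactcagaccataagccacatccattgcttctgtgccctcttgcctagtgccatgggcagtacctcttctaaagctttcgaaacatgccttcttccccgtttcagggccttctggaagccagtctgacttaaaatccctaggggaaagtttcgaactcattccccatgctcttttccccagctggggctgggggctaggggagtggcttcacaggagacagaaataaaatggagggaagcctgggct
Plin4, chr17:56109783-56110032, minus strand: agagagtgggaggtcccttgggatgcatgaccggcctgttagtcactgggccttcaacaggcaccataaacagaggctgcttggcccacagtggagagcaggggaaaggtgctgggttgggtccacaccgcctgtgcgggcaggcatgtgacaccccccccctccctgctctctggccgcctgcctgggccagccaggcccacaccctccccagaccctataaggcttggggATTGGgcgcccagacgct
Fitm2, chr2:163472630-163472879, minus strand: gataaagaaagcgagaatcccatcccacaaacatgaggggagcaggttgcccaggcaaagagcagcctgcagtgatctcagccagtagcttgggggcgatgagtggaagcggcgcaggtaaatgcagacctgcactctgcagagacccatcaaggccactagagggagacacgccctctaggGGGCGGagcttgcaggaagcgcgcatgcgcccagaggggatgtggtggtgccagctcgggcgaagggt

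Plin1 held 2 matches to the C/EBP letters, starting 187 and 58 bases before the start site. C/EBP factors drive adipocyte differentiation together with PPARγ. The same letters occurred in the 250 bases of a later start site of Cidec, and in 9.56% of all 32851 windows, while the Cidec window printed here held no match to any of the motifs. Plin4 held a CCAAT box 18 bases before its start and Fitm2 a GC box 68 bases before its start, elements found in 33.8% and 32.7% of all windows. None of the 14 windows of the 10 genes (0) held the PPAR-RXR letters, which occurred in 0.338% of all windows. A match is a description of the letters, and sites outside these windows were not searched.

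Adipoq-F2-KO adipocytes had lower mean levels of the 8 tested droplet genes, with log2 fold changes from -0.45 (Fitm2) to -0.05 (Bscl2), but no gene passed the test. Values below 0 were found for 49.6% of all tested genes. With edgeR's quasi-likelihood test adjusted over all 17039 tested genes, 0 of the 8 were called in either direction, against 1.02% of all tested genes (0.217% called lower and 0.798% called higher). At an unadjusted p under 0.05 there were 5, Fitm2, Plin4, Plin3, Cidec and Plin1, all lower, where 7.37% of all tested genes had such a p in that direction and 10.5% in the other. The count was 3 without FFA2 fl/fl library 3 (Fitm2, Plin4 and Plin3) and 3 after scaling to adipocyte markers (Fitm2, Plin4 and Cidec). It was 4 without FFA2 fl/fl library 2, where Plin1 dropped out, and 4 without Adipoq-F2-KO library 2, where Cidec did. In the other alternatives it stayed at 5. DESeq2, the tool that the study used, called 2 of the genes lower, Fitm2 and Plin4, against 1.13% of its tested genes, and limma voom called Fitm2, against 0.246%. On simulated data DESeq2 made a higher share of false calls than edgeR, but those data do not decide whether these 2 calls are false. With a filter of at least 1 count, edgeR called Fitm2 and Plin3, against 1.16%. For 6 of the 8 genes every Adipoq-F2-KO library lay below every FFA2 fl/fl library, a separation that 8.72% of all tested genes had in that direction. The median log2 fold change of the 8 genes was -0.35, beside 0.00 over all tested genes.

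**Figure D2:**
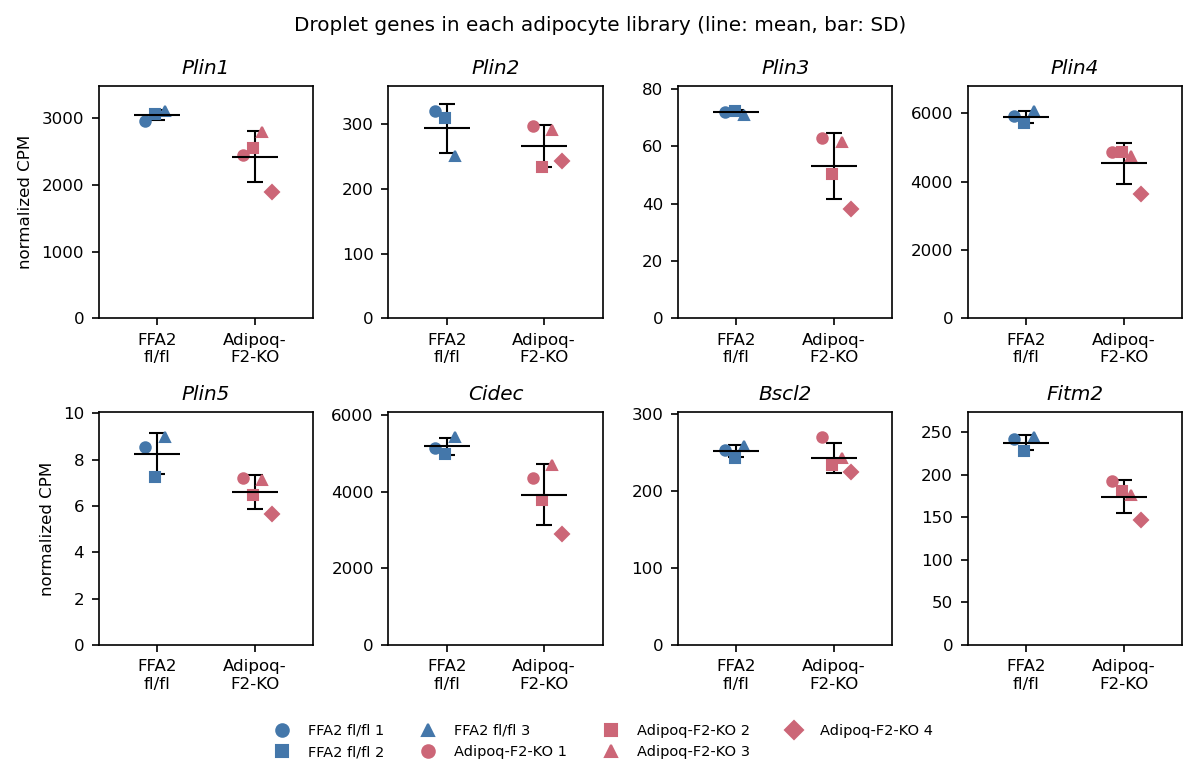
Normalized CPM of the 8 tested droplet genes, with 1 point per library, the mean as a line and the SD as a bar (n = 3 FFA2 fl/fl, blue, and 4 Adipoq-F2-KO, red). Plin1, Plin3, Plin4, Plin5, Cidec and Fitm2 show no overlap between the genotypes, while Plin2 and Bscl2 overlap, and Adipoq-F2-KO library 4 is the lowest for all but Plin2.

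Plin1 (ENSMUSG00000030546, chromosome 7 from 79369966 to 79382651 in the deposited table's coordinates) encodes the perilipin that shields the adipocyte droplet from lipases at rest. FFA2 fl/fl libraries 1 to 3 held 2962, 3061 and 3107 normalized CPM, and Adipoq-F2-KO libraries 1 to 4 held 2448, 2546, 2798 and 1893. The controls lay close together and above all 4 knockout libraries, of which library 4 was the lowest. The means were 3043 ± 74.2 (SD, n = 3) and 2421 ± 382 (SD, n = 4). The log2 fold change was -0.33 (standard error 0.12, 95% interval -0.60 to -0.06), or -20.4%. The adjusted p of edgeR was 0.198, and the exact two-sided permutation test gave p = 0.0571, where 0.0286 is the smallest that 3 against 4 libraries allow.

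Plin4 (ENSMUSG00000002831, chromosome 17 from 56407591 to 56416803) encodes a long perilipin that is abundant in white fat and coats newly formed droplets. Controls had 5915, 5706 and 6068 normalized CPM against 4872, 4867, 4749 and 3639 in Adipoq-F2-KO. Knockout libraries 1 to 3 lay within a narrow band under the controls, and library 4 stood below them. Plin4 shares 17 exon bases with Hdgfl2 on the other strand, which had 1091 to 1814 counts per library. The log2 fold change was -0.38 (standard error 0.11, 95% interval -0.63 to -0.13), or -23.1% (edgeR adjusted p = 0.127, DESeq2 adjusted p = 0.0220, exact permutation p = 0.0286). Without library 4 it was -0.29 (edgeR adjusted p = 0.101). Plin5 (ENSMUSG00000011305) lies 1797 bases from Plin4 on the same strand, with no other gene of the table between them, and was far less abundant. It had 8.54, 7.26 and 8.96 normalized CPM in FFA2 fl/fl and 7.22, 6.47, 7.14 and 5.63 in Adipoq-F2-KO. The genotypes just failed to meet, at 7.26 and 7.22, and the log2 fold change was -0.32 (standard error 0.16, 95% interval -0.68 to 0.04, edgeR adjusted p = 0.339, exact permutation p = 0.0286).

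Plin3 (ENSMUSG00000024197), which lies 159.9 kb from Plin5 on chromosome 17, was the most uniform of the genes in the controls. It had 72.1, 72.4 and 71.0 normalized CPM in FFA2 fl/fl and 63.0, 50.3, 61.5 and 38.1 in Adipoq-F2-KO libraries. All knockout libraries lay below the controls but spread widely, with an SD of 11.6 against 0.706. The log2 fold change was -0.43 (standard error 0.15, 95% interval -0.76 to -0.10), or -25.8% (edgeR adjusted p = 0.174, exact permutation p = 0.0857). Plin2 (ENSMUSG00000028494, chromosome 4 from 86566623 to 86588297) encodes the perilipin of most other cells, macrophages included, and follows the amount of stored lipid. It had 319.9, 308.7 and 249.7 normalized CPM in FFA2 fl/fl and 296.7, 232.6, 290.2 and 242.7 in Adipoq-F2-KO, and the genotypes overlapped. Its log2 fold change of -0.14 had an interval from -0.41 to 0.12 (standard error 0.12, edgeR adjusted p = 0.578, exact permutation p = 0.343), so a change of up to -24.5% or 8.95% lies within the error. The summed macrophage markers were higher in each Adipoq-F2-KO library than in any control, with 2 of the 15 markers called higher (0.798% of all tested genes), 7 without overlap in that direction (8.86% of all tested genes) and 1 with a log2 fold change below 0, and their part in the level of Plin2 was not tested. With 1 library left out, the log2 fold change of Plin2 lay between -0.23 and -0.07.

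Cidec (ENSMUSG00000030278, chromosome 6 from 113401595 to 113412721), also called Fsp27, encodes the CIDE protein that joins small droplets into the single droplet of white fat. It had 5143, 4992 and 5428 normalized CPM in FFA2 fl/fl libraries and 4351, 3777, 4700 and 2889 in Adipoq-F2-KO libraries. The genotypes did not overlap, although knockout library 3 came near the lowest control. The means were 5188 ± 221 (SD, n = 3) and 3929 ± 791 (SD, n = 4). The log2 fold change was -0.40 (standard error 0.15, 95% interval -0.72 to -0.08), or -24.3%. It was not called by edgeR (adjusted p = 0.186) or DESeq2 (adjusted p = 0.0713), and the exact permutation p was 0.0571. Without library 4 the log2 fold change was -0.28.

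Fitm2 (ENSMUSG00000048486, chromosome 2 from 163308299 to 163314549) encodes the endoplasmic reticulum protein that helps droplets bud toward the cytosol. It had 242.0, 228.0 and 244.3 normalized CPM in FFA2 fl/fl and 192.8, 181.3, 176.5 and 147.1 in Adipoq-F2-KO libraries. Here the gap was wide: the highest knockout library lay well under the lowest control. The means were 238.1 ± 8.80 (SD, n = 3) and 174.4 ± 19.5 (SD, n = 4). The log2 fold change was -0.45 (standard error 0.10, 95% interval -0.67 to -0.23), or -26.7%. This was the smallest p of the group (unadjusted p = 9.4e-04 from edgeR), and its adjusted p of 0.0588 from edgeR narrowly missed the threshold. The adjusted p was 0.00246 with DESeq2, 0.0498 with limma voom and 0.00473 with edgeR under a filter of at least 1 count, and the exact permutation p was 0.0286. Without knockout library 4 the log2 fold change was -0.38 (edgeR adjusted p = 0.0546). The edgeR adjusted p rose to 0.263 without FFA2 fl/fl library 1 and to 0.242 without FFA2 fl/fl library 3, and scaling to adipocyte markers gave -0.29 (edgeR adjusted p = 0.161). Fitm2 shares 227 exon bases with 2310001K24Rik on the other strand, which had 2 to 19 counts per library.

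Bscl2 (ENSMUSG00000071657, chromosome 19 from 8814831 to 8826047), the seipin gene, differed by less than the spread between libraries. It had 254.0, 243.7 and 259.1 normalized CPM in FFA2 fl/fl and 270.1, 234.4, 242.6 and 224.9 in Adipoq-F2-KO libraries, and the highest value of all was in a knockout library. The log2 fold change was -0.05 (standard error 0.09, 95% interval -0.25 to 0.14, edgeR adjusted p = 0.797, exact permutation p = 0.457). The interval leaves room for a change between -16.0% and 10.4%, and with 1 library left out the log2 fold change lay between -0.11 and -0.02. Bscl2 shares 398 exon bases with Gng3 on the other strand, which had 37 to 84 counts per library against 6630 to 10767 for Bscl2.

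**Figure D3:**
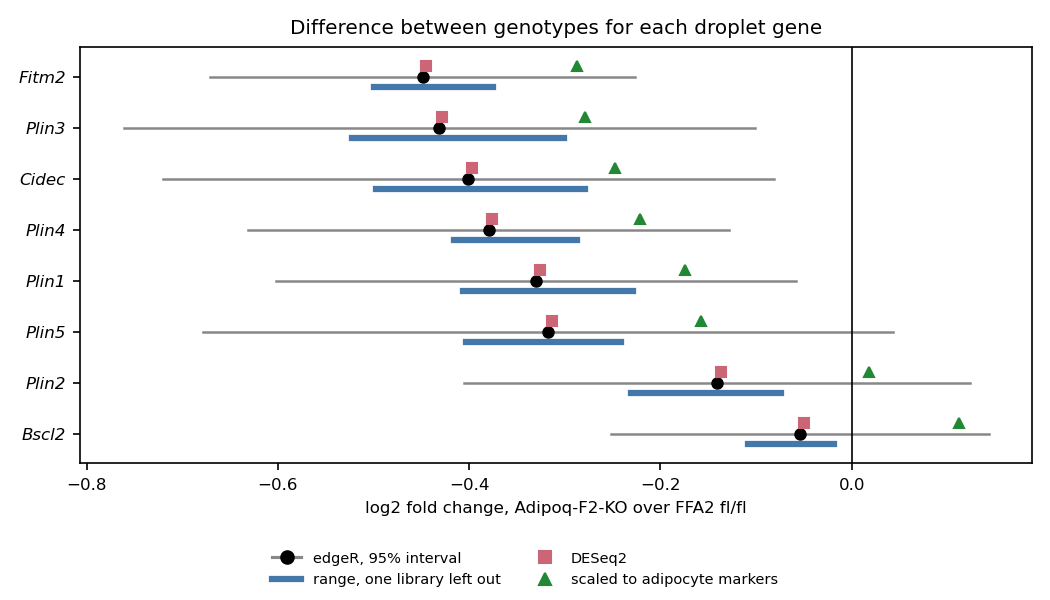
Log2 fold change of Adipoq-F2-KO over FFA2 fl/fl for the 8 tested droplet genes, with edgeR's value and 95% interval (black and gray), the range with 1 library left out (blue), DESeq2 (red squares) and edgeR after scaling to adipocyte markers (green triangles). Intervals of Fitm2, Plin3, Cidec, Plin4 and Plin1 lie below 0, those of Plin5, Plin2 and Bscl2 include 0, and scaling to adipocyte markers moves all genes to the right, Plin2 to 0.018 and Bscl2 to 0.11.

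Seen per library, most of the genes were lowest in the same library. Of the 8 genes, 7 had their lowest level of all libraries in Adipoq-F2-KO library 4, and Plin2 had it in library 2. In library 4, log2 differences from the FFA2 fl/fl mean reached -0.92 for Plin3, -0.84 for Cidec, -0.70 for Plin4, -0.69 for Fitm2 and -0.68 for Plin1. Library 3 was nearest to the controls for Cidec (-0.14) and Plin1 (-0.12), yet Fitm2 was at -0.43 there. The adipocyte marker sum was lowest in library 4 and highest among knockout libraries in library 3, the same ends of the order as for Cidec and Plin1, and its part in their levels was not tested. When libraries were scaled to that marker sum in place of TMM, log2 fold changes over all tested genes shifted to a median of 0.17. On that scale Fitm2 had -0.29 (edgeR adjusted p = 0.161), Plin3 -0.28, Cidec -0.25, Plin4 -0.22, Plin1 -0.17 and Plin5 -0.16, while Plin2 (0.018) and Bscl2 (0.11) changed sign. With 1 library left out, values stayed between -0.50 and -0.38 for Fitm2, -0.42 and -0.29 for Plin4, -0.41 and -0.23 for Plin1, -0.50 and -0.28 for Cidec, and -0.52 and -0.30 for Plin3, and none of the genes was called in any of these 7 fits (0).

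**Figure D4:**
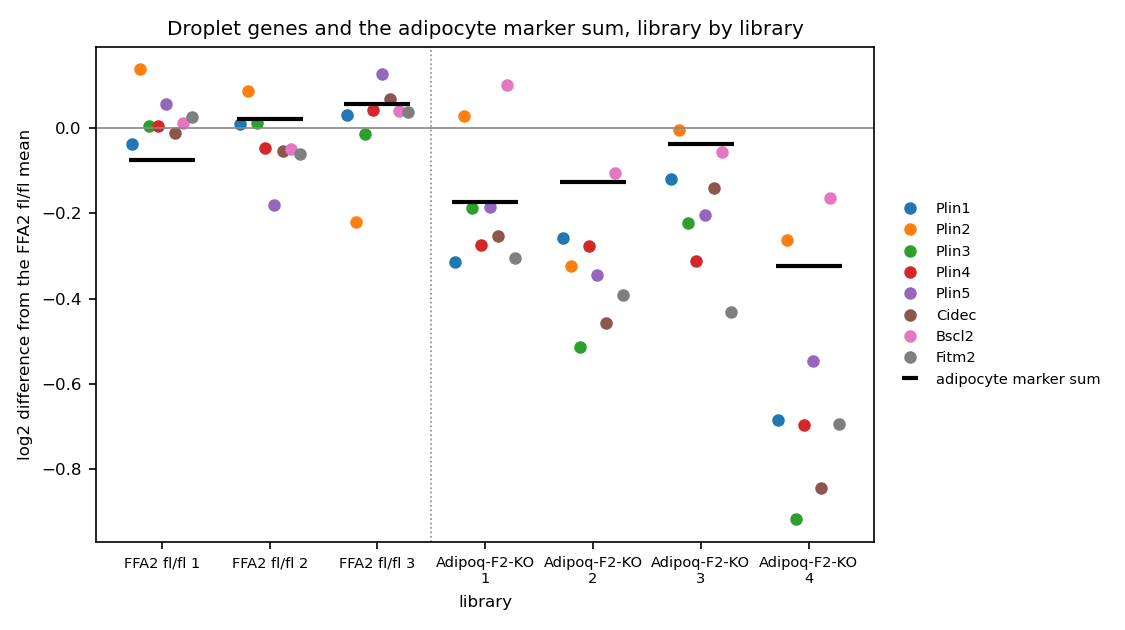
Log2 difference of each droplet gene from its FFA2 fl/fl mean (colored points) in each of the 7 libraries, with the summed adipocyte markers as black bars. In Adipoq-F2-KO library 4 all 8 genes lie below 0, down to -0.92 for Plin3, and in every knockout library Plin1, Plin3, Plin4, Plin5, Cidec and Fitm2 lie below the marker sum.

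The 5 perilipins together had 1690 ± 26.0 normalized CPM per kilobase in FFA2 fl/fl (SD, n = 3) and 1327 ± 179 in Adipoq-F2-KO (SD, n = 4). Plin4 made up 53.9% to 55.6% of this pool in FFA2 fl/fl and 51.5% to 54.9% in Adipoq-F2-KO, and Plin1 37.9% to 39.5% and 37.7% to 41.4%. Plin2 took 4.14% to 5.41% and 4.74% to 6.51%, Plin3 1.09% to 1.15% and 0.946% to 1.19%, and Plin5 at most 0.254% in any library. Each of these single shares overlapped between the genotypes. Between Cidec and Plin1 the ratio per kilobase was 4.09 to 4.38 in FFA2 fl/fl and 3.72 to 4.45 in Adipoq-F2-KO, which overlapped as well. Of the 5 ratios computed, 2 did not overlap. Fitm2 to Bscl2, both proteins of the budding site, was 1.39 to 1.42 in FFA2 fl/fl and 0.972 to 1.15 in Adipoq-F2-KO, and Plin3 to Plin2 was 0.209 to 0.264 and 0.145 to 0.201. These ratios were chosen after the levels were seen and were not tested.

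Other genes of the droplet were read from 3 lists with 64 members, of which 62 were tested. Of these 2 were called by edgeR, both lower in Adipoq-F2-KO (Lpin1 and Miga2), against 0.217% of all tested genes called lower and 1.02% called in either direction. No overlap was seen for 15 in the lower direction and 2 in the higher, against 8.72% and 8.86% of all tested genes. The median log2 fold change was -0.14 for droplet formation at the endoplasmic reticulum (17 tested, 13 below 0), -0.07 for growth, trafficking and contacts (22 tested, 17 below 0) and -0.05 for surface enzymes and their regulators (23 tested, 13 below 0), beside 0.00 over all tested genes, of which 49.6% were below 0. After scaling to adipocyte markers, which moved the median over all tested genes to 0.17, the 3 list medians were above 0, at 0.0054, 0.10 and 0.11. The formation median was -0.24 without Adipoq-F2-KO library 1, and the surface median was -0.14 without Adipoq-F2-KO library 1 and 0.0162 without library 2. With TMM and all libraries, the corresponding median of the 8 coat and budding genes was -0.35.

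In the formation list, Lpin1, the phosphatidate phosphatase that makes diacylglycerol for triglyceride, fell by 0.78 on the log2 scale, with normalized CPM of 953 ± 119 in controls (SD, n = 3) and 556 ± 64.7 in Adipoq-F2-KO (SD, n = 4) (edgeR adjusted p = 0.0332). It was not called without FFA2 fl/fl library 1 or 3 or Adipoq-F2-KO library 2 (edgeR adjusted p up to 0.196). After scaling to adipocyte markers Lpin1 was at -0.62 and still called (edgeR adjusted p = 0.0218). Agpat2, the acyltransferase whose loss causes lipodystrophy as loss of seipin does, had a log2 fold change of -0.35 (edgeR adjusted p = 0.163), and Tmem120a -0.34 (edgeR adjusted p = 0.149). Scaling to adipocyte markers brought these to -0.18 for both genes. In the list of growth and contacts, Miga2, a mitochondrial protein that links mitochondria to droplets in adipocytes, fell as well, with normalized CPM of 113 ± 3.35 in controls (SD, n = 3) and 78.0 ± 9.26 in Adipoq-F2-KO (SD, n = 4). Its log2 fold change was -0.54 (edgeR adjusted p = 0.0416), and it was called in 2 of the 7 fits with 1 library left out, without Adipoq-F2-KO library 1 or 4, and not without any of the other 5 (edgeR adjusted p up to 0.207) or after scaling to adipocyte markers (edgeR adjusted p = 0.0782). The tether Mospd2 had a log2 fold change of 0.39 and the mitofusin Mfn2 -0.24 (edgeR adjusted p = 0.126 and 0.190). After scaling to adipocyte markers Mospd2 was at 0.55 and Mfn2 at -0.08. Among surface enzymes, Lipe, the hormone-sensitive lipase that acts on PLIN1-coated droplets, had normalized CPM of 2062 ± 24.6 in controls (SD, n = 3) and 1564 ± 199 in Adipoq-F2-KO (SD, n = 4), or -0.40 on the log2 scale (edgeR adjusted p = 0.104, DESeq2 adjusted p = 0.0112), and -0.24 after scaling to adipocyte markers. Hilpda, an inhibitor of the lipase ATGL, went the other way at 0.77 (edgeR adjusted p = 0.134), as did the acyl-CoA synthetase Acsl3 at 0.44 (edgeR adjusted p = 0.189). Acsl3 was at 0.28 without FFA2 fl/fl library 3 (edgeR adjusted p = 0.448). After scaling to adipocyte markers Hilpda was at 0.92 (edgeR adjusted p = 0.0407) and Acsl3 at 0.60 (edgeR adjusted p = 0.101).

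**Figure D5:**
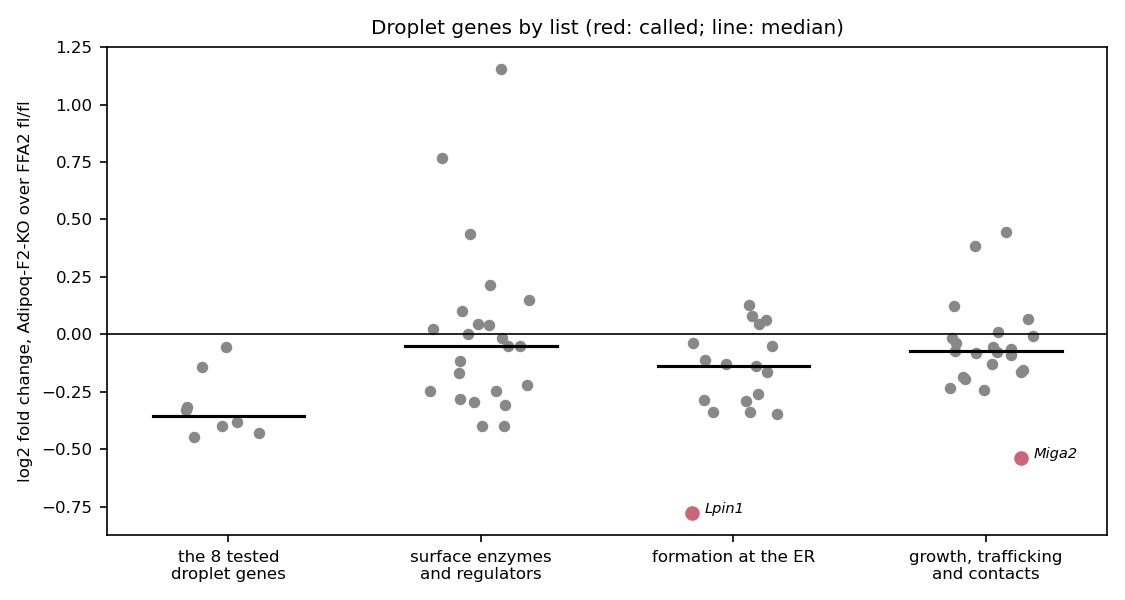
Log2 fold change of Adipoq-F2-KO over FFA2 fl/fl for the 8 tested droplet genes and for 3 lists of other droplet genes, with 1 point per gene, the median as a line and called genes in red. The medians are -0.35, -0.05, -0.14 and -0.07 from left to right, and Lpin1 and Miga2 are called.

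The genes whose profile over the 7 libraries was most like that of Plin1 were sought among 8564 other genes with a mean of at least 10 normalized CPM, by the root mean square difference of centered log2 values. They were Tmem134 (0.03), Vsir (0.04), Tbc1d17 (0.04), Zfp358 (0.04) and 2610016A17Rik (0.05). Of the droplet genes, Plin4 was nearest to Plin1 at rank 51 (0.07), then Cidec at rank 146 (0.09), while Bscl2 and Plin2 were at ranks 2787 and 3190. For Fitm2 the nearest were Ptcd1, Kank1, Pole3 and Hip1, with Plin4 at rank 5 (0.05). The likeness is a description of 7 libraries that share their genotype grouping.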

How the data were processed

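RNA-Seq libraries of mature adipocytes were used, 3 of FFA2 fl/fl and 4 of Adipoq-F2-KO mice. Per the labels and the study's methods, the authors used Trimmomatic, STAR and featureCounts for trimming, alignment and counting. They used DESeq2 to normalize and to compare the genotypes, with an FDR under 0.05 as the cut-off for adipocytes. Deposited were raw counts with the summed exon length of each gene. Versions, strand and overlap options are not given in the sources used here. The labels list GRCm38, but none of the 10 genes (0) starts at its GRCm38 position in the table, so gene coordinates are printed as deposited and promoter sequences from RefSeq in GRCm38.p6. The list gene Ldaf1 was not matched. Symbols were matched for 52029 of 57010 identifiers.

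From the counts, genes were filtered with filterByExpr, scaled with TMM and tested with the quasi-likelihood test of edgeR 4.0.16 (R 4.3.3), two-sided, in a model of genotype alone. Calls were made at a Benjamini-Hochberg adjusted p under 0.05 over 17039 genes. Standard errors are the log2 fold change over the root of F, and intervals use 11.3 degrees of freedom. Single genes were also tested with an exact permutation test of normalized CPM. The tests were run on simulated data with known changes first, where DESeq2 made a higher share of false calls than edgeR and limma voom. In these data 200 genes changed by 1 on the log2 scale, more than any of the droplet genes. The shares therefore describe the tests in that setting and not single calls made here. No 2 libraries of a genotype agreed within sampling noise (41.5 to 165 chi-square units for each degree of freedom). The labels name no batch.

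Alternatives were DESeq2 1.42.0, limma 3.58.1 voom, 3 other scalings, 2 filters, a replicate block, and each library left out. In a further alternative the mitochondrial genes and ENSMUSG00000119584 were left out. The members and lists were chosen with earlier results of these data known. Named are the 10 genes, Ffar2, the called genes and the 3 smallest p of each droplet list, the 2 most abundant of each marker list, the genes with counts whose exons overlap a member (for Cideb only Nop9), and the 5 nearest profiles to Plin1 and to the gene with the smallest p.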

Additional observations from a re-analysis of the deposited data

Results flagged for a closer look

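In each group of 4 libraries, the extreme library was compared with its nearest neighbor for 21 values (the 10 droplet genes and 11 marker sums), a comparison that chance marks in about 1 in 20 groups. Only the Adipoq-F2-KO group has 4 libraries, so the FFA2 fl/fl group was not examined in this way. Plin4 stood out in Adipoq-F2-KO library 4, with 3639 normalized CPM against 4749 to 4872 in the other 3 libraries, a gap that was 0.9 of the group's range. Cideb also met the criterion, with a gap of 1, because library 4 had 2 counts and the others 0, which is below the limit that a count of 0 allows.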

How the results depend on the processing

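Over 16 alternatives and 8 tested genes, 126 of 128 log2 fold changes were below 0, 121 kept their direction and side of the threshold, 5 passed it and 2 changed sign. The sign changes were Bscl2 (0.11, edgeR adjusted p = 0.639) and Plin2 (0.018, edgeR adjusted p = 0.964) after scaling to adipocyte markers. The number of the 10 droplet genes called lower was 2 with DESeq2 (Fitm2 and Plin4), 2 with a filter of at least 1 count (Fitm2 and Plin3), 1 with limma voom (Fitm2) and 0 otherwise, and 0 were called higher anywhere. Over all alternatives the adjusted p lay between 0.00246 and 0.263 for Fitm2 and between 0.0951 and 0.450 for Plin1. Scaling to adipocyte markers moved the list medians to 0.0054 (formation), 0.10 (growth and contacts) and 0.11 (surface enzymes), with 1 surface gene called higher (Hilpda) and 0 growth genes called lower. The filter of at least 1 count called 1 surface gene (Hilpda) and 1 growth gene (Rnf213) higher, and DESeq2 called 1 surface gene lower (Lipe). With 1 library left out, medians ranged from -0.24 to -0.11 (formation), -0.10 to -0.04 (growth and contacts) and -0.14 to 0.0162 (surface enzymes), and the genes called lower from 0 to 1 in the formation list and from 0 to 1 in the growth list. The cause of these shifts was not tested, other than that fewer samples were used. Over all genes, edgeR called 173, from 1 to 178 with 1 library left out (the lowest when FFA2 fl/fl library 1 and the highest when Adipoq-F2-KO library 1 was left out), 402 after scaling to adipocyte markers, 888 with DESeq2 and 1403 with a filter of at least 1 count. Same-numbered libraries did not deviate together (correlations of 0.0958, -0.0288 and -0.0488), and pairs with unlike numbers had -0.146 to 0.147. No pairing by number was seen, but so few pairs cannot exclude it. With a replicate block over replicates 1 to 3, log2 fold changes were -0.38 for Fitm2 (edgeR adjusted p = 0.0673) and -0.23 for Plin1, 0 of the droplet genes were called, and 252 genes were called in all. Fitm1 and Cideb, at or near 0 counts, had no value in the main test, and the depth limits both.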

Other observations

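Marker lists of other cells gave the following sums of normalized CPM. Brown and beige adipocyte markers, led by Kcnk3 and Ppargc1a, summed to 41.8 to 67.05 in FFA2 fl/fl and 31.6 to 50.3 in Adipoq-F2-KO libraries. Kcnk3 had means of 33.9 and 21.7, while 6 of the 9 tested markers had a log2 fold change above 0 (median 0.22). No overlap in the higher direction was seen for 2 of the 9, against 8.86% of all tested genes. Skeletal muscle markers, led by Myl1 and Acta1, summed to 72.5 to 86.2 and 51.9 to 82.4. Fibroblast progenitor markers, led by Col3a1 and Col1a2, summed to 1303 to 1647 and 1615 to 1932, erythroid markers, led by Hbb-bs and Hba-a1, to 97.8 to 223.9 and 209.5 to 373.2, and neutrophil markers to 8.12 to 10.3 and 12.3 to 14.9. Of these 5 lists the neutrophil sums alone did not overlap between the genotypes, and Mmp9 had most of that difference, with means of 6.09 and 10.5 normalized CPM, while S100a8 had 2.26 and 1.99, and 3 of the 8 neutrophil markers were tested. Mesothelial markers, led by Krt8 and Krt19, reached 57.7 in FFA2 fl/fl library 1 and lay between 10.7 and 20.6 elsewhere. Germ cell and epididymal markers, led by Prm2 and Tnp2, reached 110.2 in Adipoq-F2-KO library 2 and 22.7 in library 3, against at most 3.76 elsewhere. Genes induced by tissue dissociation, led by Egr1 and Fosb, summed to 9946 to 12286 in FFA2 fl/fl and 10121 to 11067 in Adipoq-F2-KO libraries. The part of these other cells in the levels of the droplet genes was not tested.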
